A study of Mus musculus with 4 samples.

Results

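Gfap, Vim, Nes and Synm encode the 4 intermediate filament proteins described in astrocytes, and their transcripts were followed through single-cell RNA libraries of mouse frontal cortex and midbrain. They were chosen by name, as 4 of the 19602 genes in the frontal cortex table and 4 of the 19956 in the midbrain table, and all 4 were found in both. The transgenic animals, a model of synucleinopathy, carried the allele written in the labels as Hua-Syn(A53T), and the controls were wildtype C57BL/6 littermates. All mice were 6 to 9 months old. Each region and genotype was 1 library, and the design text gives 3 mice per group, whose cells carry no mouse label. The promoter that drives the transgene is not given in the sources used here. With 1 library per group there was no replicate check and no test was run, so every interval below covers counting error only.

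Intermediate filaments are rope-like polymers that give a cell mechanical strength, and their subunits differ between cell types. GFAP and vimentin are type III proteins that can build a filament, whereas nestin and synemin are large partners that enter filaments built by others. In the healthy adult brain GFAP marks many astrocytes of white matter and fewer of the cortical grey matter. Vimentin and nestin are also made by blood vessel cells and by neural progenitors, and synemin is well known from muscle. Reactive astrocytes are known for more GFAP and vimentin and for the return of nestin and synemin.

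On GRCm38 (mm10), as GENCODE annotates it, Gfap lies on chromosome 11 from 102887336 to 102900912 on the minus strand, with up to 9 exons in a coding transcript. The plus-strand non-coding gene Gm26668 spans it. Vim lies on chromosome 2 from 13573927 to 13582826 (plus strand, up to 9 exons), and Nes on chromosome 3 from 87971078 to 87980451 (plus strand, up to 5 exons). Synm lies on chromosome 7 from 67730160 to 67759742 (minus strand, up to 5 exons). The counts belong to whole genes and do not separate exons or isoforms.

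Sequence before the transcript starts is shown because the members differed from each other both in where they were found and in how they differed between libraries. It comes from RefSeq promoters of GRCm38.p6 (250 bases before to 50 after the start, 4 of 4 members matched), each written 5′ to 3′ on the gene's strand. Capitals mark letters found by searching both strands. In Gfap they are STAT letters (TTCNNNGAA) across the RefSeq start, at chr11:102897183-102897212. This start, like those of Vim and Nes, lies inside the gene's GENCODE span given above and not at its 5′ end. In Vim the capitals are a TATA box (TATAAA), at chr2:13574267-13574296. In Nes, at chr3:87970973-87971092, they are GC boxes (GGGCGG, here read on the opposite strand), and in Synm, at chr7:67759743-67759862, the core letters bound by nuclear factor I (TTGGC).
Gfap: atgggggtgcTTCCAGGAAgtcaggggcag
Vim: tcctaacagtgtTATAAAagcagcgccctt
Nes: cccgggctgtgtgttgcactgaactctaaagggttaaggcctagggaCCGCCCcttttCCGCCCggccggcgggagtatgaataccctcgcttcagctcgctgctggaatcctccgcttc
Synm: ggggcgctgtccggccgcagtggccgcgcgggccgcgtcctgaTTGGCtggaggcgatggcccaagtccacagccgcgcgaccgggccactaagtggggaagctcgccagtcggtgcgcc
Among the members the STAT letters were found in Gfap alone, and 8.30% of all 32851 promoter windows hold them. The TATA letters were found in Vim alone (13.6% of windows) and the GC box in Nes alone, where it occurs 2 times (35.7%). The nuclear factor I core occurs 2 times in Vim and 1 time in Synm (46.7% of windows). The letters of AP-1 (TGANTCA) and of Sox factors (AACAAT) were in none of the 4 windows, against 7.81% and 10.7% of all windows. Such matches describe the sequence and show no binding.

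The libraries held 3775 to 7635 cells and 30712684 to 56588233 UMIs (counted RNA molecules), and any 2 of them shared 3 to 15 cell barcodes. Cells labelled AC by the authors, here astrocytes, numbered 868 and 1067 in transgenic and wildtype frontal cortex and, in the same order, 1512 and 2644 in midbrain. Their median mitochondrial share was 9.68% and 5.27% in frontal cortex, while midbrain had 7.07% and 6.54%. Of 10 astrocyte markers, 10 peaked in AC cells in frontal cortex and 7 in midbrain. The labels MG, EC, PC, SMC and MAC held all the microglial, endothelial, pericyte, smooth muscle and macrophage markers checked in both regions. Other labels were mixed or went against their markers, and 5 of 6 fibroblast markers peaked in OPC cells of either region. Of the OPC markers, 6 of 7 also peaked in frontal cortex OPC cells, but 7 of 7 peaked in midbrain imNeur cells. Labels are printed as deposited.

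Among types with at least 50 cells, Gfap was highest in astrocytes in every library, while the other members were highest in cells of the vessel wall. Levels are CPM, a gene's UMIs over all UMIs of the cells of a type, scaled to 1000000. They are given for types with at least 50 cells, with 95% Poisson intervals. Gfap stood at 584 CPM (566 to 602) in transgenic and 118 (111 to 125) in wildtype frontal cortex astrocytes, and at 206 (197 to 214) and 144 (139 to 150) in midbrain. The next highest type had 23.8, 6.25, 7.25 and 38.2 CPM in these libraries. Astrocytes exceeded microglia, which should lack Gfap, by 24.7-fold, 39.9-fold, 28.4-fold and 27.0-fold in the same order. The 38.2 CPM belonged to MAC cells, where 40 of 43 UMIs were in 1 cell. TNC cells of wildtype midbrain, left out at 43 cells, had 260 CPM (212 to 316), above astrocytes.

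Vim was highest in SMC cells of all 4 libraries, at 3510 CPM in transgenic and 3674 in wildtype frontal cortex and at 2486 and 2833 in midbrain. Endothelial cells followed at 1239, 997, 1297 and 1134 CPM, with EPC cells (ependymal markers) above them at 1269 in wildtype midbrain. Astrocytes had 193, 80.3, 40.5 and 51.6 CPM, so endothelial cells held 6.42 to 32.1 times as much. Against microglia, astrocyte Vim was 4.24-fold and 1.89-fold higher in transgenic and wildtype frontal cortex, but 1.60-fold and 1.31-fold in midbrain. In midbrain the astrocyte intervals overlapped those of CPC cells in both libraries.

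Nes followed the same order in every library, with EC cells above PC cells and PC cells above SMC cells, although PC and SMC intervals overlapped in transgenic midbrain. Endothelial cells had 267 CPM (256 to 278) in transgenic and 390 (381 to 398) in wildtype frontal cortex, and 304 (291 to 317) and 365 (355 to 374) in midbrain. Pericytes had 193, 252, 197 and 210 CPM. Frontal cortex astrocytes had 9.60 and 10.5 CPM and midbrain ones 2.43 and 3.52, against 11.2, 15.8, 10.5 and 11.8 in microglia. Nes in astrocytes was thus no higher than in microglia in any library, and a level of this size is read as background here.

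Synm was highest in SMC cells (475, 445, 337 and 363 CPM) and next in endothelial cells (393, 375, 302 and 309), apart from EPC cells of wildtype midbrain at 358. Astrocytes had 14.5, 10.4, 6.51 and 6.80 CPM, against 9.24, 13.6, 4.01 and 6.79 in microglia. The astrocyte level was 1.57-fold the microglial one in transgenic frontal cortex, 0.764-fold in wildtype frontal cortex and 1.62-fold in transgenic midbrain. In wildtype midbrain the levels were alike within their intervals, and in transgenic midbrain the SMC and EC intervals overlapped. Pericytes, which had much Nes, held 18.2 to 28.0 CPM of Synm. The plot of levels by cell type shows these orders.

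**Figure D1:**
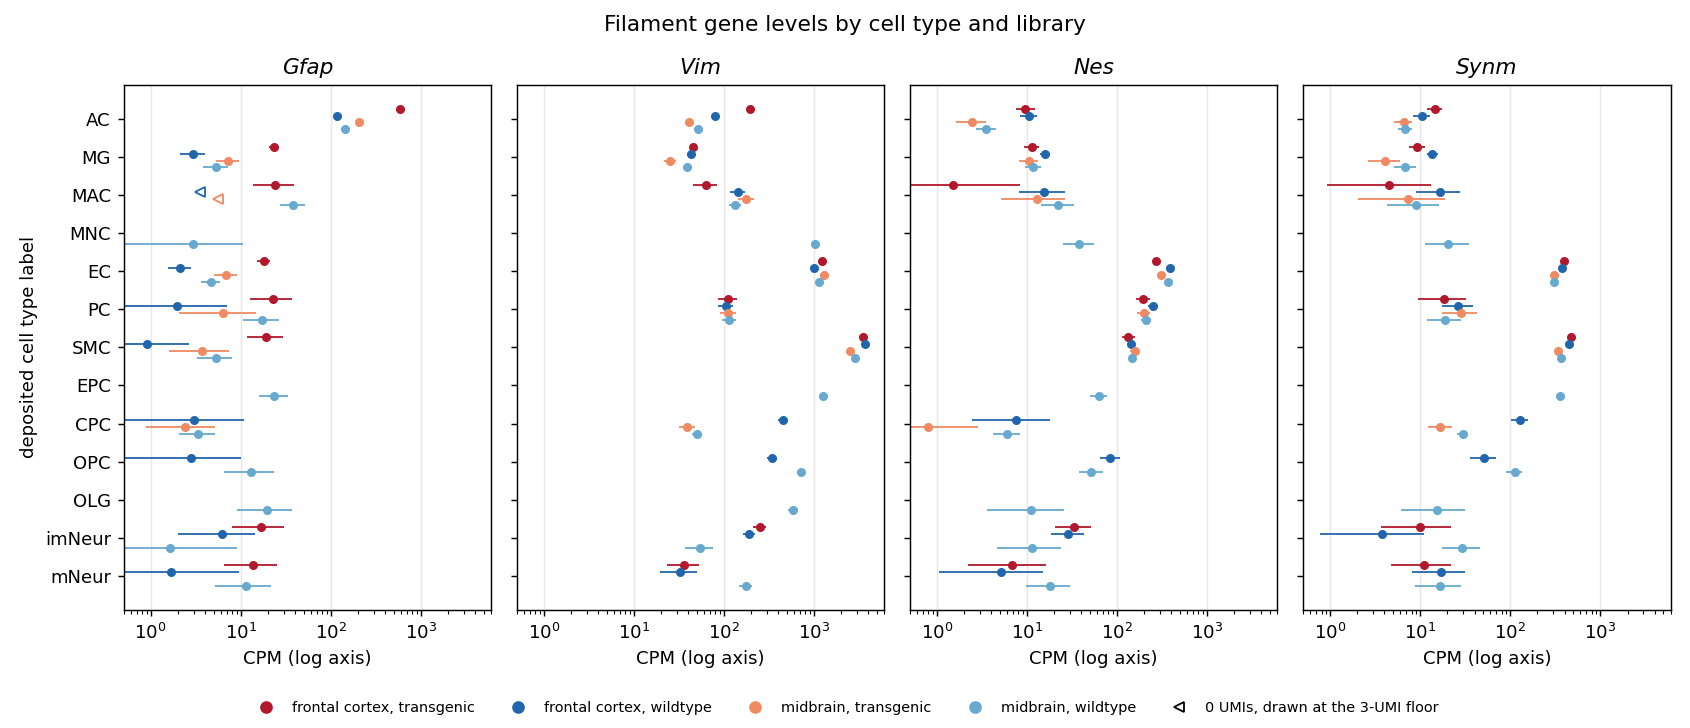
CPM of each gene (log axis) by deposited cell type, for groups of at least 50 cells; points are libraries, bars 95% Poisson intervals and open triangles groups with 0 UMIs drawn at 3 UMIs. Gfap stands highest in AC cells, Vim and Synm in SMC cells and Nes in EC cells in all 4 libraries.

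In frontal cortex astrocytes Gfap and Vim were both higher in the transgenic library. Nes and Synm, at low counts, were less than 1.5 times apart in summed UMIs. Gfap had 4074 UMIs (584 CPM) in transgenic and 1000 (118 CPM) in wildtype astrocytes, a log2 ratio of 2.31 (2.21 to 2.41). Vim had 1347 UMIs (193 CPM) against 682 (80.3 CPM), a log2 ratio of 1.27 (1.13 to 1.40). Nes had 67 and 89 UMIs (log2 ratio -0.13, -0.61 to 0.35), and Synm 101 and 88 (0.48, 0.06 to 0.91). A gene was counted as different at 1.5 times and at least 20 CPM in 1 library, which 2 of the 4 members reached in level. Both of these, Gfap and Vim, counted as higher, beside 3.6% of 7120 genes higher and 2.96% lower.

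The frontal cortex values of the rare members depended on how cells were weighted. The Synm log2 ratio was 1.31 with the mean of per-cell CPM, 1.01 in thinned cells, 1.10 with clusters weighted alike and 1.18 without the 10 highest cells. Nes was above 0 under 7 of 11 alternatives, at up to 1.01 among cells under 5% mitochondrial UMIs. Markers of other cell types in these astrocytes also differed. Erythroid markers summed to 314 CPM in transgenic and 20.1 in wildtype frontal cortex astrocytes, and to 261 and 47.0 in midbrain. Choroid plexus markers were the largest such sum in midbrain astrocytes, at 1941 CPM in transgenic and 3516 in wildtype, against 19.2 and 10.5 in frontal cortex. In frontal cortex, microglial markers summed to 497 against 964 CPM, endothelial ones to 193 against 462 and neuronal ones to 53.1 against 20.8. Their part in the ratios was not tested for each list.

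Within the authors' frontal cortex astrocyte clusters, the Gfap ratio of summed UMIs was above 0 in 4 of 4, with 3 intervals above 0. The Vim ratio passed 1.5 times in clusters 4 and 11 alone. The clusters were built from all genes, these 2 included, so their levels are a description. In cluster 1 (390 transgenic and 781 wildtype cells) Gfap was at 203 against 64.8 CPM, a log2 ratio of 1.65 (1.48 to 1.82). Vim there was at 87.3 against 71.8 CPM, a ratio of 0.28, so that Gfap counted as higher and Vim did not, beside 2.39% of genes higher and 2.11% lower. Nes and Synm in cluster 1 had ratios of -0.63 and -0.34.

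Cluster 4 (309 and 205 cells) had Gfap at 1096 against 255 CPM (log2 ratio 2.10) and Vim at 493 against 161 CPM (1.62). Here 16.7% of genes counted as higher and 13.1% as lower, and its cells were shallow, at a median of 2287 and 1819 UMIs with 13.7% and 12.02% mitochondrial. Cluster 11 (116 and 34 cells) had Gfap at 1194 against 714 CPM (0.74) and Vim at 294 against 140 CPM (1.07). It was the deepest cluster, at a median of 17600.5 and 16009.5 UMIs, where Synm had 41 UMIs in transgenic and 0 in wildtype cells. Set against a floor of 3 UMIs, the Synm log2 ratio was 1.95, with a lower limit of 1.58. Cluster 22 (53 and 47 cells) had Gfap at 55.3 against 48.3 CPM and Vim at 28.8 against 36.9 CPM.

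Cluster make-up differed between these libraries along with the levels. Cluster 11 held 13.4% of transgenic and 3.19% of wildtype astrocytes but 57.0% and 39.2% of their Gfap UMIs, and cluster 4 held 35.6% and 19.2% of the cells. Without cluster 4 the Vim log2 ratio was 0.99, and with clusters weighted alike the Gfap ratio was 1.24. Gfap ranked 27th and 17th, and Vim 13th and 69th, among the genes that set clusters 4 and 11 apart from the other astrocytes.

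In midbrain astrocytes the result depended on cluster 4, and for Gfap also on cluster 10. The 10 leading genes of cluster 4 held 0 astrocyte markers and 1 marker of another type (Npy, of olfactory ensheathing cells). The other midbrain astrocyte clusters also held 0 astrocyte markers among theirs. Summed over all astrocyte markers checked, cluster 4 had 25311 CPM in transgenic and 22947 in wildtype cells. In both libraries this was above clusters 1, 3 and 5 and below clusters 10 and 22. Over all midbrain AC cells, the main comparison, the Gfap log2 ratio was 0.51 and did not count as different. Cluster 4 held 15.6% of transgenic and 48.0% of wildtype astrocyte Gfap UMIs, with a log2 ratio of -0.98 within it. Leaving it out was an alternative added after seeing the data. Without cluster 4, Gfap had 1999 UMIs (180 CPM) in transgenic and 1236 (78.0 CPM) in wildtype astrocytes, a log2 ratio of 1.204 (1.10 to 1.31). Vim was at 36.8 CPM in both libraries (-0.19 to 0.18 on the log2 scale). Nes had 25 and 54 UMIs, and Synm 72 and 107 (-0.06). In this alternative, of the 2 members at 20 CPM, Gfap counted as higher and Vim did not. Cluster 10, kept in it, held 49.7% of transgenic and 17.0% of wildtype astrocyte Gfap UMIs. In all astrocytes outside cluster 10, cluster 4 included, Gfap was lower in the transgenic library, at 115 against 139 CPM. Leaving out both clusters was not tried. The background of the alternative without cluster 4 was as follows. Of 7088 genes, 0.875% were higher and 0.564% lower.

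Over all midbrain AC cells the Gfap log2 ratio was 0.51 (0.43 to 0.59), from 206 against 144 CPM, and that of Vim -0.35 (-0.52 to -0.19), from 40.5 against 51.6 CPM. By this count 0 of 2 members passed 1.5 times, beside 0.806% of 7075 genes higher and 0.594% lower. Nes (28 and 58 UMIs) and Synm (75 and 112) had ratios of -0.54 and -0.06, with intervals that include 0. The midbrain Gfap ratio over all AC cells passed 1.5 times with the mean of per-cell CPM (0.89), but was 0.36 without the 10 highest cells and 0.061 among cells under 5% mitochondrial UMIs.

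Cluster 10 was the midbrain cluster in which the intervals of Gfap, Vim and Synm all lay above 0. Its 106 transgenic and 284 wildtype cells had Gfap at 1041 against 180 CPM (log2 ratio 2.53), beside 8.33% of genes higher and 5% lower in this cluster. Vim was at 136 against 80.4 CPM (0.76, 0.44 to 1.08), and Synm had 24 against 11 UMIs, 21.2 against 4.91 CPM (2.11, 1.03 to 3.29). Median depth was 10402 and 7370.5 UMIs per cell, and the mitochondrial share 6.26% and 4.72%. In clusters 1, 3 and 5, the 3 that held most midbrain astrocytes, Gfap ratios were -0.01, 0.23 and -0.24 and Vim ratios -0.17, -0.45 and -0.16. None of these passed 1.5 times, beside 1.38%, 3.21% and 2.02% of genes higher and 0.678%, 2.3% and 1.33% lower.

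The 2 shallow midbrain clusters differed in opposite directions. Cluster 4 (233 and 319 cells, median 1315 and 1343 UMIs) had Gfap at 933 against 1836 CPM (log2 ratio -0.98) and Vim at 144 against 428 CPM (-1.58), where 12.2% of genes counted as higher and 17.4% as lower. Cluster 22 (61 and 63 cells, median 1312 and 1423 UMIs) had Gfap at 3887 against 941 CPM (2.05) and Vim at 481 against 331 CPM (0.54, -0.09 to 1.16). In cluster 22, 23.7% of genes counted as higher and 24.8% as lower.

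**Figure D2:**
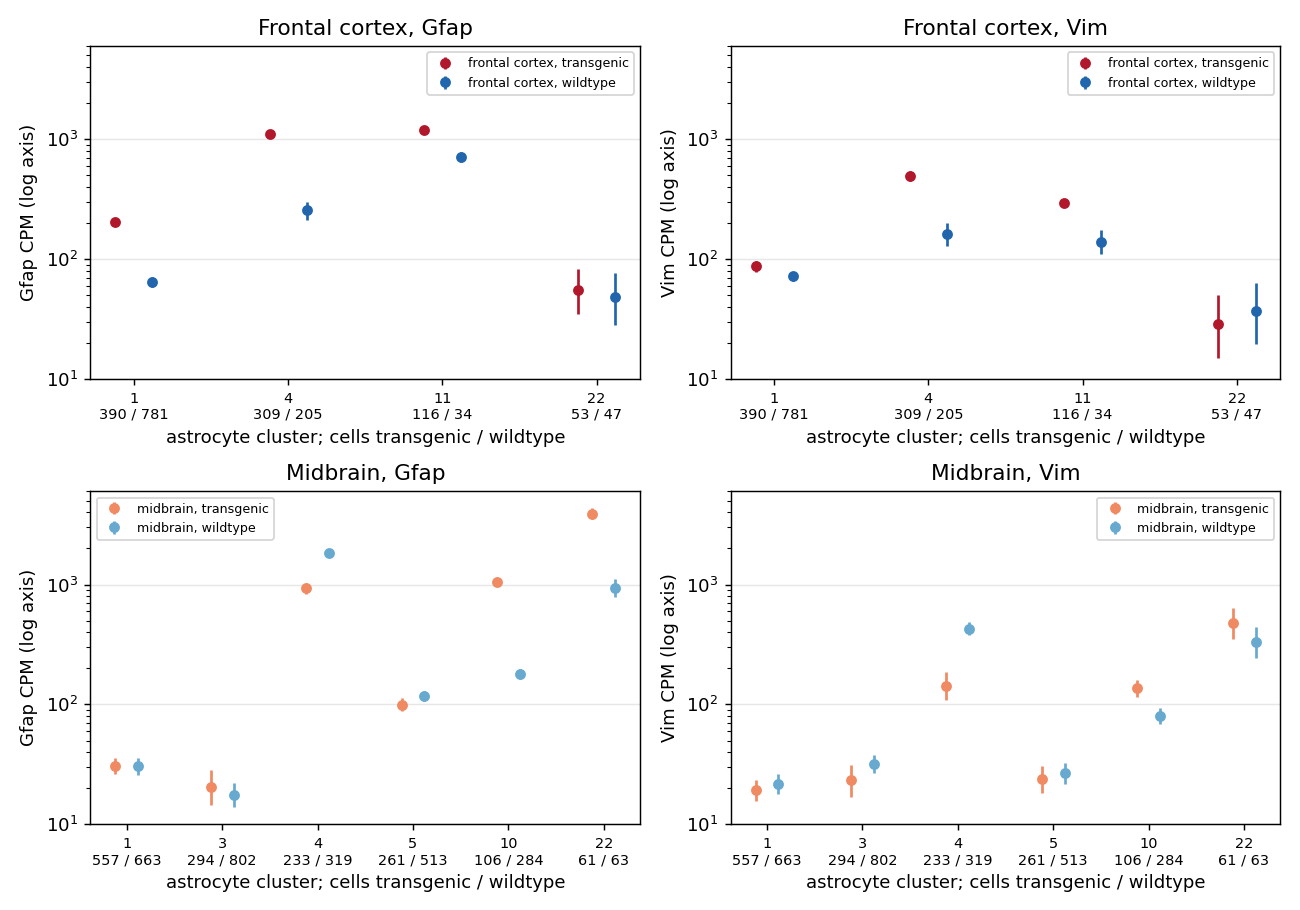
Gfap and Vim CPM (log axis) in each astrocyte cluster and library, with 95% Poisson intervals and the number of cells of each genotype under the cluster number. Gfap is higher in transgenic frontal cortex cluster 1 (203 against 64.8 CPM) and midbrain cluster 10 (1041 against 180), and lower in midbrain cluster 4 (933 against 1836).

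Outside astrocytes, Gfap UMIs were more frequent throughout the transgenic frontal cortex library. It was at 13.7 to 23.8 CPM in the 7 other types there, against 0 to 6.25 in the same types of the wildtype library, and higher in 7 of 7, with 6 intervals above 0. Microglia had 248 UMIs (23.6 CPM) in transgenic and 42 (2.95 CPM) in wildtype frontal cortex, a log2 ratio of 3.00 (2.52 to 3.51), beside 1.26% of genes higher and 0.974% lower. Endothelial cells had 17.9 against 2.12 CPM (3.08, 2.59 to 3.59), under the 20 CPM the count asks for. In midbrain Gfap was higher in 2 of the 6 other types and lower in 4. The part of free RNA in these levels was not tested.

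In endothelial cells, where Nes was highest, it was lower in the transgenic libraries of both regions, by less than 1.5 times. Frontal cortex endothelial cells had 267 CPM in transgenic (2221 UMIs, 861 cells) and 390 in wildtype (8276 UMIs, 2240 cells), a log2 ratio of -0.54 (-0.61 to -0.48). The ratio was below 0 in 4 of 4 endothelial clusters, from -0.56 to -0.49, with every interval below 0. In midbrain the levels were 304 and 365 CPM, a ratio of -0.26 (-0.34 to -0.19), below 0 in 3 of 4 clusters, 2 of them with intervals below 0. In frontal cortex, median depth and mitochondrial share of these cells were close, at 8530 and 8180.5 UMIs and 4.09% and 3.64%. In midbrain the transgenic cells were deeper, at 8460 against 7221.5 UMIs, with mitochondrial shares of 3.98% and 3.94%.

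Vim in endothelial cells was slightly higher in the transgenic libraries, with log2 ratios of 0.31 (0.28 to 0.35) in frontal cortex, from 1239 against 997 CPM, and of 0.19 (0.16 to 0.23) in midbrain, from 1297 against 1134. It was above 0 in 4 of 4 clusters of each region. Synm differed little, at 393 against 375 CPM (0.07) and 302 against 309 CPM (-0.03). None of the 3 passed 1.5 times, beside 1.09% of genes higher and 1.03% lower in frontal cortex endothelial cells and 0.929% and 0.943% in midbrain.

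Smooth muscle cells, with the highest Vim and Synm, had log2 ratios of -0.07 and 0.09 in frontal cortex, and those of midbrain had -0.19 and -0.11. In midbrain microglia Vim was at 25.3 against 39.3 CPM (-0.64, -0.92 to -0.36) and counted as lower, beside 0.954% of genes higher and 2.47% lower. In frontal cortex microglia it was at 45.5 against 42.5 CPM (0.10). The plot of ratios by cell type sets the regions side by side.

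**Figure D3:**
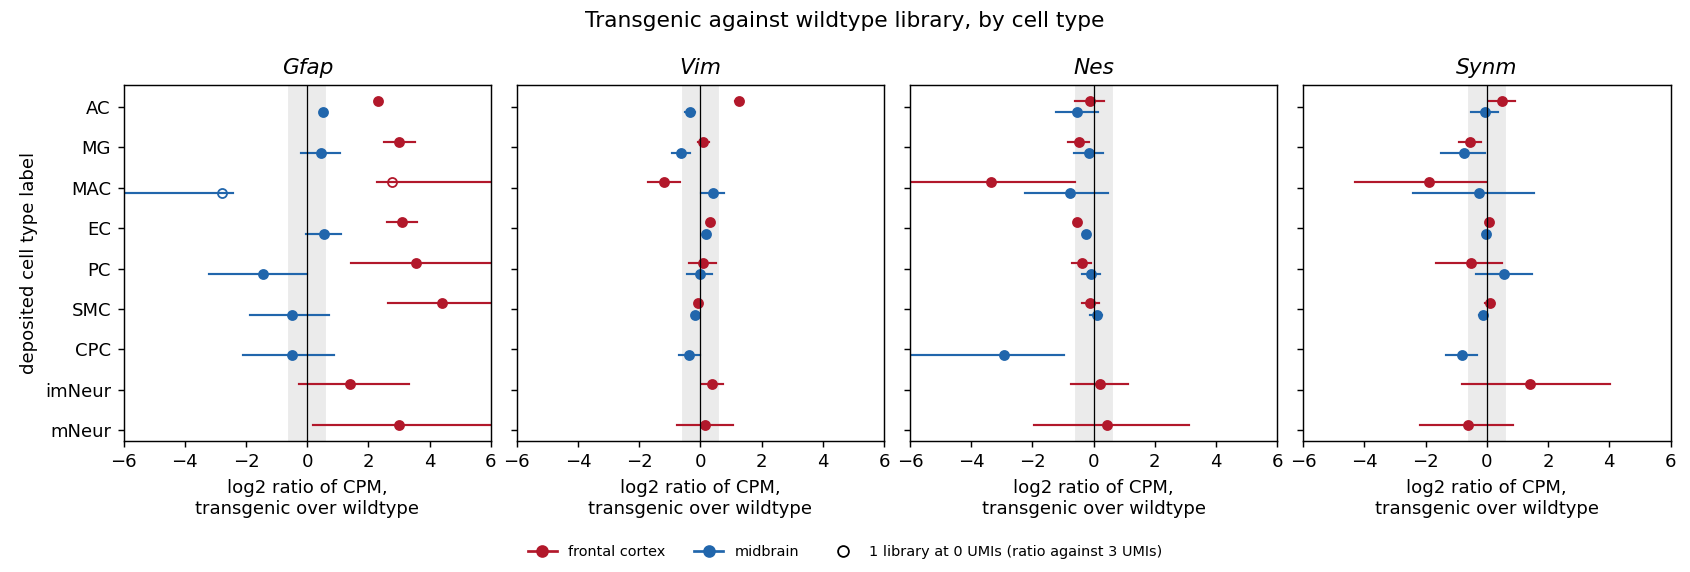
Log2 ratio of CPM, transgenic over wildtype, for each gene and deposited cell type with at least 50 cells in both libraries; bars are exact 95% counting intervals, cut at the axis limits, and the grey band marks less than 1.5 times. Gfap lies above 0 in all 8 frontal cortex types, and Vim passes the band upwards in AC cells of frontal cortex (1.27) alone.

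Set across regions, Vim in astrocytes was lower in midbrain than in frontal cortex in both genotypes, and Gfap in the transgenic pair alone. The regions were deposited as separate tables of raw counts, so CPM are compared here without joint normalization. In wildtype astrocytes the log2 ratio of midbrain over frontal cortex was 0.29 for Gfap and -0.64 for Vim, beside 6.58% of 7193 genes higher and 7.06% lower by 1.5 times. In transgenic astrocytes it was -1.505 for Gfap and -2.25 for Vim, beside 8.45% of 7323 genes higher and 8.6% lower. Nes ratios were -1.57 and -1.98 and Synm ratios -0.61 and -1.15, at levels under 20 CPM. Endothelial markers in the same astrocytes summed to 462 CPM in wildtype and 193 in transgenic frontal cortex, and 138 and 101 in midbrain, and their part in these ratios was not tested.

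The difference in Gfap was one of how many cells had a UMI as well as of level. After each cell was thinned to 3000 UMIs, which left out 200 to 435 shallower astrocytes per library, 47.2% (43.3 to 51.2) of transgenic and 15.2% (12.9 to 17.8) of wildtype frontal cortex astrocytes had a Gfap UMI. The unthinned shares were 62.1% and 26.1%. Microglia at the same depth had 5.99% and 0.776%. In midbrain 12.99% and 10.5% of thinned astrocytes had a Gfap UMI, with intervals that overlap, and 24.3% and 17.7% unthinned.

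A Vim UMI was found in 28.0% (24.6 to 31.7) of transgenic and 15.5% (13.1 to 18.04) of wildtype frontal cortex astrocytes after thinning (47.4% and 31.1% unthinned), against 7.11% and 7.26% of microglia. In midbrain the shares were 8.99% and 9.78% of astrocytes (17.9% and 18.7% unthinned) and 7.57% and 8.16% of microglia, so midbrain Vim was close to the microglial share. Endothelial cells had Vim in 89.1% to 94.0%, Nes in 47.2% to 62.2% and Synm in 52.8% to 64.5% of thinned cells. In astrocytes the Nes shares were 0.4996% to 1.73%, below the 2.58% to 2.82% of microglia, and the Synm shares 1.33% to 4.25%.

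Few astrocytes carried much of the Gfap RNA, above all in midbrain. The 10 cells with the most Gfap UMIs held 21.6% and 28.4% of them in transgenic and wildtype frontal cortex, and 44.9% and 38.5% in midbrain. It took 49 of 868 and 31 of 1067 frontal cortex cells to reach 50% of the Gfap UMIs, but 13 of 1512 and 20 of 2644 midbrain cells. The highest cell held 168, 71, 204 and 235 Gfap UMIs, while the median cell with any held 3, 2, 1 and 1. For Vim the 10 highest cells held 16.0% to 25.8%.

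Cells with Gfap had Vim more often than cells without it in all 4 libraries. In transgenic frontal cortex 119 of 300 thinned astrocytes with a Gfap UMI had Vim (39.7%, 34.1 to 45.4), against 59 of 335 without (17.6%, 13.7 to 22.1). The shares were 24.2% and 13.9% in wildtype frontal cortex, 16.7% and 7.85% in transgenic midbrain, and 22.1% and 8.34% in wildtype midbrain, and no pair of intervals overlapped. Vim was also higher in cells with more Gfap UMIs in 3 of the 4 libraries. In transgenic frontal cortex it was 69.7 CPM in cells with 0 Gfap UMIs, 132 with 1, 191 with 2 to 4 and 823 with 5 or more. At 5 or more it reached 517 CPM in transgenic and 1303 in wildtype midbrain, from 20 and 22 cells. In wildtype frontal cortex it was 59.0 CPM with 0 Gfap UMIs, 134 with 1 and 50.7 with 2 to 4, the last from 7 UMIs in 46 cells. The class of 5 or more held too few cells in this library and was left out, so the trend there is incomplete.

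Within frontal cortex cluster 1 alone the shares were close, at 18.3% with and 17.0% without Gfap in the transgenic library and 17.8% and 13.4% in the wildtype one. Transgenic cluster 11 had 60.2% (49.5 to 70.2) with and 17.4% (4.95 to 38.8) without, and transgenic cluster 4 had 55.6% and 37.04%, with intervals that overlap. In midbrain cluster 10 the shares were 34.7% and 14.3% in the transgenic and 34.3% and 11.96% in the wildtype library, with intervals that overlap in the transgenic one alone. In midbrain clusters 1, 3 and 5 the intervals overlapped in each library with at least 20 cells of both kinds. Intervals that did not overlap were thus found within transgenic cluster 11 of frontal cortex and wildtype cluster 10 of midbrain.

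Over all frontal cortex astrocytes, Synm and Nes were found more often in cells with Vim than in cells without. In the wildtype library 8.21% of astrocytes with Vim and 0.819% of those without had a Synm UMI, and in the transgenic one 8.43% and 2.63%. For Nes the shares were 5.97% and 0.955% in the wildtype and 3.93% and 0.875% in the transgenic library, where the intervals overlapped. Within transgenic clusters, the Synm shares were 9.38% and 1.32% in cluster 1. They were close in cluster 4 (6% and 6.12%) and cluster 11 (10% and 8.93%). Some of the few cells concerned also carried endothelial markers (Cldn5, Pecam1, Flt1, Ly6c1, Slco1a4 and Kdr). In wildtype frontal cortex these summed to 6608 CPM in the 17 astrocytes with a Synm UMI and 240 in the others, and 11 of the 17 had at least 2 such UMIs, against 8.94% of the rest. In the transgenic library 4 of 27 had them (14.8%, 4.19 to 33.7), against 6.41% of the rest.

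The 15 wildtype frontal cortex astrocytes with Nes had 4156 against 298 CPM of endothelial markers, and 7 of them had at least 2 such UMIs, as did 3 of 11 in the transgenic library. Vim showed it less (1373 against 181 CPM), and Gfap did not (280 against 380). In the transgenic library the values were 1284 against 155 CPM for Synm, 879 against 191 for Nes, 345 against 147 for Vim and 178 against 225 for Gfap. In wildtype midbrain they were 148 against 127 CPM for Synm and 269 against 126 for Nes. In transgenic midbrain they were 458 against 95.9 CPM for Synm and 1222 against 95.1 for Nes, from 16 and 6 cells, of which 1 each had at least 2 such UMIs. The part of these markers in the genotype ratios was not tested beyond an analysis of cells with fewer than 4 UMIs of other types' markers, in which the frontal cortex ratios were 2.17 for Synm, 0.71 for Nes, 3.16 for Gfap and 1.43 for Vim.

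**Figure D4:**
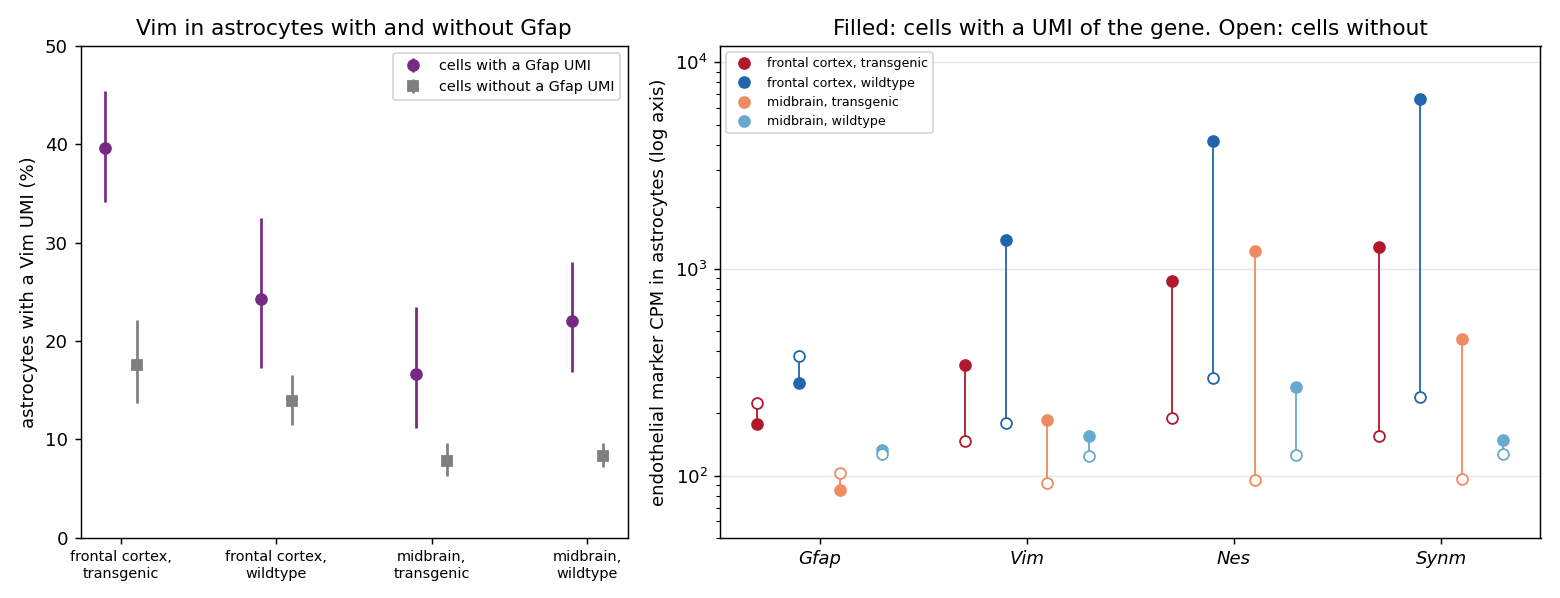
Left, share of thinned astrocytes with a Vim UMI among cells with and without a Gfap UMI, with exact 95% binomial intervals (39.7% and 17.6% in transgenic frontal cortex). Right, summed endothelial marker CPM (log axis) in astrocytes with (filled) and without (open) a UMI of each gene, by library; the gap is widest for Synm in wildtype frontal cortex (6608 against 240).

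Of 59 other filament genes and partners in 8 lists, 38 reached 20 CPM in frontal cortex astrocytes, of which 4 counted as higher and 1 as lower, with 3.6% and 2.96% of all genes as background. The 4 were Lmna, the gene of the nuclear lamins A and C (28.6 against 15.8 CPM, log2 ratio 0.86), and Bag3, a co-chaperone of filament turnover (41.1 against 15.4, 1.41). The others were Stat3, the transcription factor known to act on Gfap (121 against 52.3 CPM, 1.21, 1.04 to 1.38), and Olig2, a glial transcription factor (68.6 against 32.0, 1.10). Fos, of the AP-1 factor, was lower (107 against 183 CPM, -0.77). The 22 transcription factors as a list had a median of 0.025, beside 0.013 for all genes.

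In midbrain 37 of 58 listed genes reached 20 CPM, with 0 higher and Fos lower (80.8 against 140 CPM, -0.80). Stat3 (57.0 against 46.0 CPM, 0.31), Bag3 (0.44), Olig2 (0.40) and Lmna (0.12) were less than 1.5 times apart there. Among other filament genes, 0 of the 2 further type III genes (Des, Prph) and 0 of the 4 neurofilament genes reached 20 CPM in either region. Nefl, the light neurofilament chain, had 22 and 18 UMIs in frontal cortex, while midbrain had 60 and 58. In midbrain Nefh had 30 against 10 UMIs (2.10, 1.03 to 3.30) and Ina 34 against 18 (1.43, 0.57 to 2.34), both under 3 CPM and named after their values were seen. Plec, the linker plectin, had ratios of -0.09 and -0.26.

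Across 38 groups of cell type and library, Gfap levels were unlike those of the other members. Pearson's r of log2(CPM + 1) was -0.15 with Vim, -0.22 with Nes and -0.24 with Synm, against 0.85 between Vim and Synm, 0.68 between Vim and Nes and 0.69 between Nes and Synm. The groups share libraries and differ in depth, so r is a description. The genes most like Gfap were Mlc1 (0.83), Bmpr1b, Grin2c, Fgfr3 and Slc1a2 (0.79). For Vim they were Synm (0.85), Plec (0.83), Synpo2, Slc25a24 and Net1, for Nes Tpm4 (0.91), Itga1, Pear1, Foxf2 and Ebf1, and for Synm Filip1 (0.87), Kif5b, Nkd1, Cavin1 and Synpo2.

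Among astrocytes alone, over 18 groups of cluster and library, Gfap and Vim were alike, with r of 0.92. Gfap was most like Canx (0.97), Cpe, Gnai2, Mlc1 and Anxa2, and Vim most like S100a6 (0.97), Eef1a1, Rps4x, Guk1 and Rps26, of which Eef1a1, Rps4x and Rps26 are translation genes. Nes was most like Stx7 (0.85), Ctla2a, Tgfbr2, Vamp3 and the endothelial marker Ly6c1 (0.81). Synm was most like Hspb1 (0.94), a small heat shock protein gene, and Tagln2, Eif4a1, S100a10 and Wdr1. Median depth varied between these groups from 1312 to 17600.5 UMIs per cell, and its part in these likenesses was not tested.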

How the data were processed

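Droplet libraries (10x Chromium 3′ kit, v3, per the labels' protocols) were made from frontal cortex and midbrain of transgenic and wildtype mice, by a dissociation adapted to glial and vascular cells. The submitters' processing notes name Cell Ranger 3.0.0, Seurat 3.1.5 and mm10. The deposited matrices hold raw UMI counts per gene and cell, and the deposited cell tables give mitochondrial share in percent, cluster and cell type. Deposited cells had under 20% mitochondrial UMIs and at least 844 UMIs. Whether doublets were removed is not given in the sources used here, and no caller was run, so mixed droplets remain possible.

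Counts were summed by cell type or cluster and library and scaled to CPM. A ratio of 2 libraries has an exact conditional 95% interval (Clopper-Pearson), and 0 UMIs are replaced by a floor of 3. Shares of cells have exact binomial intervals. A member was counted as different at 1.5 times and 20 CPM. The genes named are the members, the 5 most like each and, from the partner lists, those past that rule with Des, Prph, Nefl, Lmna and Plec. Members and lists were chosen with earlier results of these data known. Alternatives were edgeR 4.0.16 and DESeq2 1.42.0 scaling factors, other totals, thinned or filtered cells, and clusters left out or weighted alike, the last ones including some added after seeing the data. Scripts ran in Python 3.11.15 and R 4.3.3 and were tested on simulated data.

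The labels give mouse number 3 for frontal cortex and 0 for midbrain, while the design text gives 3 mice per group. The regions come from the same mice, and p-values are not given because each group is 1 library.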

Additional observations from a re-analysis of the deposited data

Results flagged for a closer look

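Vim in astrocytes lay on opposite sides of 0 in the regions, with a log2 ratio of transgenic over wildtype of 1.27 in frontal cortex and -0.35 in midbrain. With 1 library per group, the difference of 1.62 was not tested. Without midbrain cluster 4 the midbrain value was -0.00082, and in frontal cortex cluster 1 it was 0.28.

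In MAC cells, with 85 transgenic and 112 wildtype cells in frontal cortex and 70 and 157 in midbrain, Gfap and Vim also lay on opposite sides. Gfap had 16 transgenic and 0 wildtype UMIs in frontal cortex (log2 ratio 2.76 against the floor, lower limit 2.29). In midbrain Gfap had 0 and 43 UMIs, where the ratio against the floor was -2.79. Of the 43 UMIs, 40 were in 1 cell. Vim had ratios of -1.18 and 0.40. In these cells 20.4% of genes in frontal cortex and 23.3% in midbrain passed 1.5 times in either direction. The differences between regions were not tested.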

How the results depend on the processing

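No paired analysis was possible because each group is 1 library. No alternative turned a called ratio round. Gfap in frontal cortex astrocytes stayed above 0 under 12 alternatives (1.24 to 3.16), as did Vim (0.99 to 1.97). Midbrain Gfap stayed above 0 under 13 (0.061 to 1.66), and midbrain Vim was above 0 under 2 of 13. These did not include leaving out midbrain cluster 10. In the astrocytes outside that cluster Gfap was at 115 CPM in the transgenic and 139 in the wildtype library, the opposite direction. Nes in endothelial cells stayed below 0 under 9 alternatives in each region (-0.60 to -0.52, and -0.30 to -0.14).

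Values that moved out of the counting interval are given as log2 ratios of transgenic over wildtype astrocytes. With the mean of per-cell CPM, Gfap was 2.49 and Vim 1.46 in frontal cortex and Synm 1.31, and in midbrain Gfap was 0.89 and Vim -0.17. In thinned cells frontal cortex Vim was 1.43 and Synm 1.01, and midbrain Gfap 0.65. Among cells under 10% mitochondrial UMIs frontal cortex Gfap was 2.71. Among cells under 5%, Gfap was 3.08, Vim 1.62 and Nes 1.01 in frontal cortex, and Gfap 0.061, Vim -0.18 and Synm -0.53 in midbrain. In cells with fewer than 4 UMIs of other types' markers, Gfap was 3.16, Vim 1.43, Nes 0.71 and Synm 2.17 in frontal cortex, and Gfap 1.66 and Vim 0.25 in midbrain. With clusters weighted alike, Gfap was 1.24, Nes 0.65 and Synm 1.10 in frontal cortex, and Gfap 0.94, Vim -0.15 and Synm 0.83 in midbrain. Without the 10 highest cells of each gene, Gfap was 2.45 and Synm 1.18 in frontal cortex, and Gfap 0.36 and Nes -1.33 in midbrain.

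Alternatives added after seeing the data were these. With microglial CPM subtracted, Vim was 1.97 in frontal cortex and 0.31 in midbrain. Without cluster 4, frontal cortex Vim was 0.99, and midbrain Gfap was 1.204 and Vim -0.00082. Without midbrain clusters 4 and 22, Gfap was 1.08 and Vim -0.051. The cause of these shifts was not tested.

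Without the 20 CPM filter, 2008 genes were higher and 2041 lower in frontal cortex and 1631 and 1272 in midbrain. With rank correlation, 0 to 2 of the 5 genes most like each member across cell types were shared. At under 20 CPM, Nes and Synm in astrocytes rest on 28 to 112 UMIs per library, which leaves wide intervals.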

Other observations

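The EPC and TNC labels held filament genes at high levels, in groups too small for the comparisons. Midbrain EPC cells, with 6 of 6 ependymal markers highest, had Vim at 1470 CPM in 45 transgenic cells and 1269 CPM in 114 wildtype cells, and Synm at 252 and 358 CPM. Gfap in these cells was at 62.2 and 23.4 CPM. Cells labelled TNC, 25 transgenic and 43 wildtype, had Vim at 768 and 911 CPM, Nes at 64.9 and 86.8 CPM and Synm at 145 and 115 CPM. Their Gfap was at 24.9 CPM in the transgenic and 260 CPM in the wildtype library, the latter above the 144 CPM of astrocytes. Of the 102 wildtype UMIs, 45 were in 1 cell.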
